A study of Mus musculus with 18 samples.

Results

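The genes described here are 9 genes of the naive T cell programme, namely Tcf7, Lef1, Foxo1, Satb1, Bach2, Dapl1, Igfbp4, Amigo2 and Actn1. They were taken by name from the 49585 genes of the count table, and all 9 were present and passed the filter on low counts in both model fits. The 9 were selected on their measured levels in these same libraries, with earlier results known and no single contrast recorded for the choice, so every fold change and p-value of theirs is a description, given beside the share of all genes that were called. Bulk RNA-seq was performed on CD45+ leukocytes of Kaede mice, whose fluorescent protein turns from green to red under UV light and so tags the cells present in a tissue when it is lit. By the protocol, recipients aged 6 to 10 weeks were given Th1-polarized OT-II CD4+ T cells, which recognize ovalbumin, and immunized with ovalbumin in Complete Freund's Adjuvant. Inflammation was induced by injecting 100 μg heat-aggregated ovalbumin into the footpad or the ear pinna, photoconversion followed at day 3, and tissue was taken 24 hours later. Joint nonmigrated and skin nonmigrated cells were tagged cells still in the inflamed joint or ear, and joint migrated and skin migrated cells were tagged cells that had reached the draining lymph node. The remaining 2 groups, joint node steady state and skin node steady state, are labelled as leukocytes that had moved to the lymph node from joint or ear at steady state. Each of the 6 groups held 3 libraries.

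Several features of the groups limit what they stand for. Cells of several mice were pooled in a library, and p-values measure the spread between these pools. The protocol gives phosphate-buffered saline as the control injection, and the labels of the steady-state samples carry the letters PBS and KG for the joint and the word Naive for the skin, which the labels do not explain. Whether those libraries held only photoconverted cells therefore cannot be stated here. Total assigned counts ran from 35554698 to 43814403 in the 9 joint libraries, from 19239531 to 22528895 in the 6 inflamed skin libraries and from 28577566 to 40055171 in the skin steady-state libraries. The inflamed skin columns also had their own naming scheme and a lower share of reads outside genes (0.0925% to 0.135% against 0.227% to 0.562%), so that the site and these features cannot be told apart in comparisons of these libraries with others. The defining T cell genes Cd3d, Cd3e and Cd3g belong to a list of 15 T cell core genes whose geometric mean was 36.1 ± 11 CPM (read counts scaled to library size with TMM factors, SD, n = 3) in joint nonmigrated cells and between 82.3 and 267.9 CPM in the other 5 groups. Skin nonmigrated replicate 3 stood apart from its group, with a T cell core level of 36.0 CPM against 98.3 and 112.7, and with macrophage and monocyte genes summing to 14467 CPM against 6725 and 4805. Results that rest on it are given with and without it.

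Naive T cells circulate between blood and lymph nodes and have not yet met their antigen. Their quiescent state is kept by a set of transcription factors, among which TCF1 (encoded by Tcf7) and LEF1 are related factors that bind the same DNA motif and can recruit β-catenin or Groucho (TLE) proteins. FOXO1 maintains the genes for lymph node homing and for the interleukin 7 receptor until signalling from the antigen receptor moves it out of the nucleus, SATB1 organizes chromatin in thymocytes and T cells, and BACH2 represses effector genes such as Prdm1. Activated and effector T cells lower these genes, whereas memory cells that can self-renew keep part of them.

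Tcf7, on chromosome 11 (52252371 to 52283014, mm10), was the most abundant of the 9 genes in the 4 lymph node groups. Its level was 32.3, 54.7 and 51.9 CPM in the joint nonmigrated libraries and 889, 823 and 624 CPM in the joint migrated ones. In the skin it was 131, 142 and 52.4 CPM in nonmigrated cells and 769.9, 954 and 952 CPM in migrated cells. The migrated and nonmigrated libraries were thus far apart at both sites, and the lowest of the 3 skin nonmigrated values came from the library that stood apart. The log2 fold change, migrated over nonmigrated, was 4.07 (SE 0.36, edgeR adjusted p = 4.09e-06) in the joint and 3.03 (SE 0.35, edgeR adjusted p = 2.31e-05) in the skin, or 2.71 without skin nonmigrated replicate 3. In bulk samples, fewer T cells and less Tcf7 RNA per T cell cannot be told apart. At steady state Tcf7 stood at 799, 886 and 887 CPM in the joint node and at 943, 984 and 1070.4 CPM in the skin node. The ranges of neighbouring lymph node groups overlapped throughout this order (skin steady state, skin migrated, joint steady state, joint migrated).

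Lef1, on chromosome 3 (131110471 to 131224356), had the same direction at both sites but a different place for the steady-state nodes. It measured 6.10, 6.91 and 13.2 CPM in joint nonmigrated cells and 95.5, 64.1 and 53.3 CPM in joint migrated cells. In skin nonmigrated cells it measured 13.4, 20.6 and 5.87 CPM, and in skin migrated cells 74.5, 87.3 and 88.2 CPM. The log2 fold change with migration was 3.02 (SE 0.42, edgeR adjusted p = 1.05e-04) in the joint and 2.64 (SE 0.42, edgeR adjusted p = 2.55e-04) in the skin. Its steady-state values of 149, 174 and 186 CPM (joint node) and 249.9, 256 and 260.2 CPM (skin node) all lay above every inflamed library. An antisense gene, Gm43352, shares 1208 exon bases (13.7%) with Lef1, and it held 1068 counts over the 18 libraries against 69662 for Lef1.

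**Figure D1:**
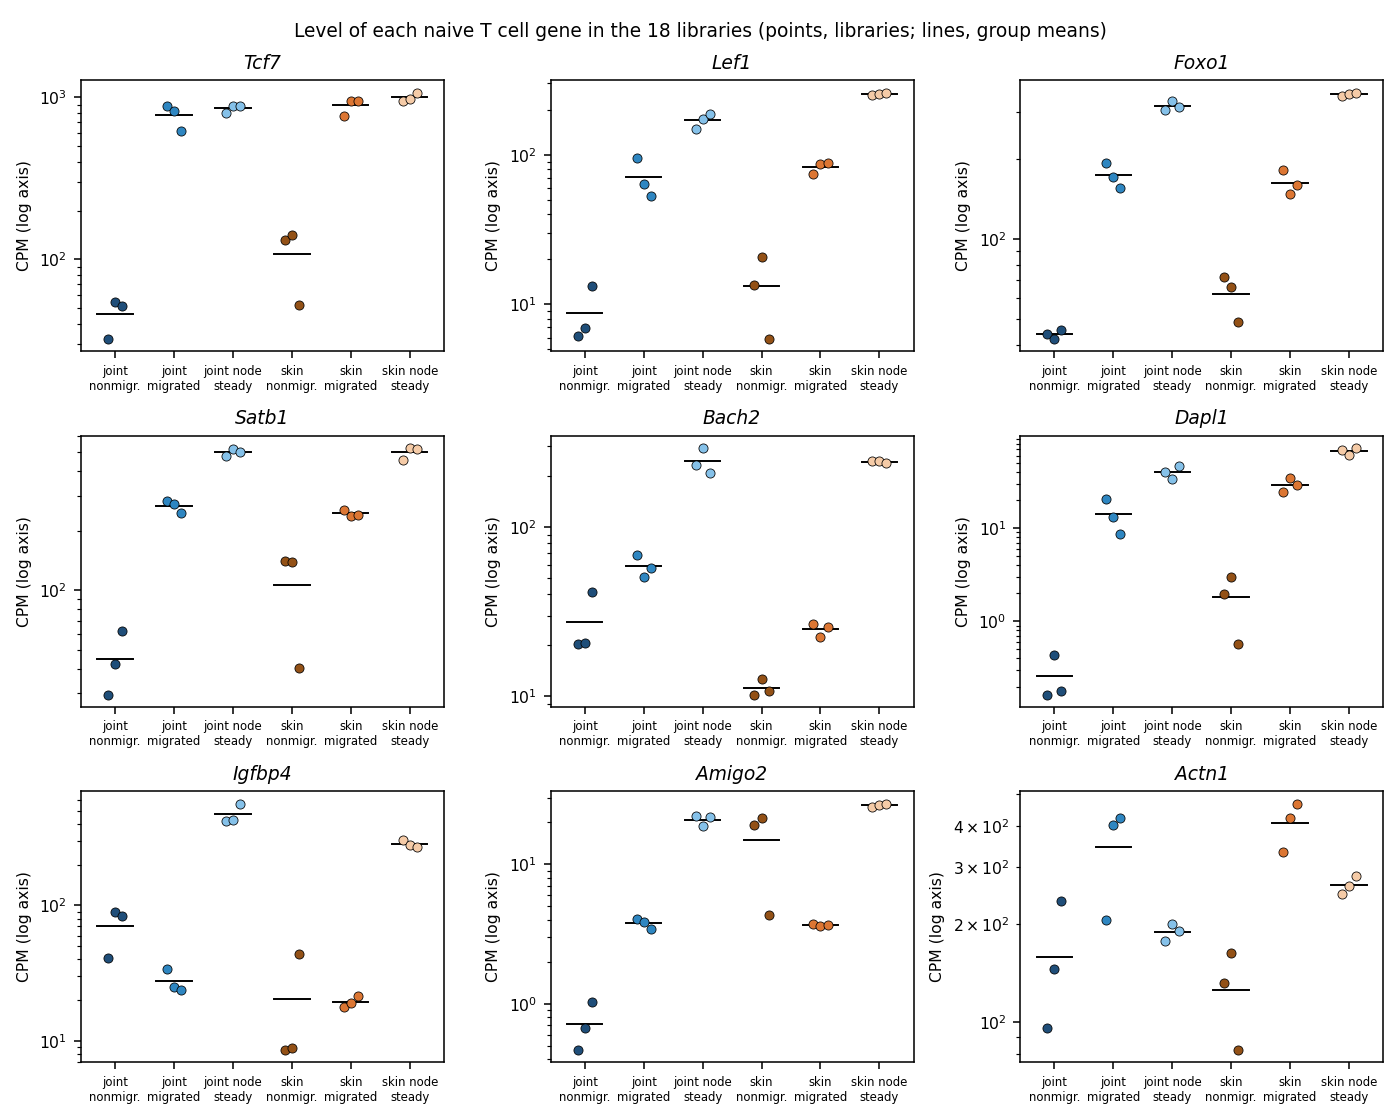
Level of each of the 9 genes in CPM (log axis) in the 6 groups, with a point for each of the 3 libraries and a line at the group mean. For Tcf7 the 12 lymph node libraries sit between 624 and 1070.4 CPM, above all 6 nonmigrated libraries, whereas Amigo2 is higher in skin nonmigrated than in skin migrated cells.

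Foxo1, on chromosome 3 (52268336 to 52353221), varied little among the joint nonmigrated replicates. Joint nonmigrated libraries held 44.1, 42.1 and 45.7 CPM and joint migrated libraries 192, 171 and 156 CPM. Skin nonmigrated libraries held 72.0, 65.9 and 48.8 CPM and skin migrated libraries 182, 147 and 159 CPM. Migrated cells thus had the higher level with no overlap at either site, by a log2 fold change of 1.98 (SE 0.15, edgeR adjusted p = 1.38e-06) in the joint and 1.38 (SE 0.15, edgeR adjusted p = 1.43e-05) in the skin. The steady-state means were 316 ± 12.2 CPM and 349.6 ± 4.81 CPM (SD, n = 3) in the joint and skin nodes.

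Satb1, on chromosome 17 (51736187 to 51833290), measured 29.6, 42.4 and 61.9 CPM in joint nonmigrated and 284, 272 and 246 CPM in joint migrated cells. In the skin it measured 141, 138 and 40.2 CPM in nonmigrated and 254, 237 and 241 CPM in migrated cells. The migrated level was much the same at both sites, whereas the skin nonmigrated group split into 2 high libraries and the low replicate 3. The log2 fold change was 2.58 (SE 0.40, edgeR adjusted p = 2.17e-04) in the joint and 1.19 (SE 0.38, edgeR adjusted p = 0.0195) in the skin. Without skin nonmigrated replicate 3 the skin value was 0.81 (SE 0.23, edgeR adjusted p = 0.0118), which is under the fold threshold.

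Bach2, on chromosome 4 (32238804 to 32586108), differed from the preceding genes in its order of groups. It measured 20.4, 20.6 and 41.5 CPM in joint nonmigrated and 68.5, 50.4 and 57.1 CPM in joint migrated cells. Skin nonmigrated libraries held 10.3, 12.6 and 10.8 CPM, and skin migrated libraries 26.7, 22.4 and 25.7 CPM. Migration was accompanied by about the same log2 fold change at both sites, 1.09 (SE 0.25, edgeR adjusted p = 0.00273) in the joint and 1.15 (SE 0.25, edgeR adjusted p = 0.00244) in the skin, from levels that were higher in the joint. The joint call was lost without joint nonmigrated replicate 1 (0.91), joint nonmigrated replicate 2 (0.92) or joint migrated replicate 1 (0.98). Both steady-state nodes held far more Bach2, 245 ± 43.1 CPM and 242 ± 3.94 CPM (SD, n = 3). BACH2 is also a B cell factor, and the 10 B cell genes moved with it: their summed level ran from 140 to 347 CPM in joint nonmigrated, 1069 to 1433 CPM in joint migrated, 19.6 to 34.1 CPM in skin nonmigrated, 189.8 to 328 CPM in skin migrated and 4064 to 6256 CPM in steady-state libraries. The defining B cell genes were thus present in every group that is compared here, and their part in the Bach2 values was not tested.

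Dapl1, a small gene on chromosome 2 (59484653 to 59505020) related to the death-associated protein Dap, changed more than any other of the 9 genes with migration. It was near the detection limit in joint nonmigrated cells, with 0.164, 0.432 and 0.18 CPM (6, 13 and 6 counts), and reached 20.7, 13.3 and 8.57 CPM in joint migrated cells. In the skin it rose from 1.98, 2.98 and 0.572 CPM to 24.3, 34.7 and 29.0 CPM. These are log2 fold changes of 5.79 (SE 0.59, edgeR adjusted p = 1.02e-05) and 4.00 (SE 0.51, edgeR adjusted p = 5.31e-05). The steady-state means were higher again, at 40.0 ± 6.0 CPM in the joint node and 67.2 ± 5.51 CPM in the skin node (SD, n = 3).

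The 250 bases before each RefSeq transcription start of the 9 genes (17 windows, GRCm38.p6) were searched on both strands for 4 motifs of the factors named above and of ETS proteins. The motif CTTTGAT of TCF and LEF factors was found in 3.21% of all 32851 windows, TGTTTAC of FOXO factors in 3.17%, ACAGGAAG of ETS factors in 2.9% and TGACTCA of BACH and AP-1 factors in 4.46%. Among the 9 genes, 1 window of Dapl1 and 1 of Lef1 held a match, and the 100 bases around each are shown because these were the only matches. The match is in capitals. In Dapl1 the FOXO motif lies on the opposite strand and starts at base -164 before the start (chr2:59484443-59484542, plus strand, upstream of the gene). In Lef1 the ETS motif starts at base -15 before a start inside the gene (chr3:131156194-131156293, plus strand, no exon bases).
Dapl1: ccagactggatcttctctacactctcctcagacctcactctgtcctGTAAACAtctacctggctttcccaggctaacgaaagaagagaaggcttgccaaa
Lef1: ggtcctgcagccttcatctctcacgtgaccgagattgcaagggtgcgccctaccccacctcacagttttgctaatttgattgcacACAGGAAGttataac
A match describes the letters in the window and no binding was measured.

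Igfbp4, on chromosome 11 (99041244 to 99054392), encodes a secreted binding protein of insulin-like growth factors that is made by naive T cells and also by stromal cells. It was the only 1 of the 9 genes that fell with migration in the joint. The joint nonmigrated libraries held 40.9, 89.1 and 83.3 CPM and the joint migrated libraries 34.1, 25.1 and 23.8 CPM, a log2 fold change of -1.36 (SE 0.53, edgeR adjusted p = 0.0449). This call was just inside the threshold and was lost in 9 of 22 alternative settings, 8 of them without a single library, with values of -1.64 to -1.17 over all 22. In skin nonmigrated cells it measured 8.57, 8.88 and 43.8 CPM and in skin migrated cells 17.7, 19.0 and 21.5 CPM, so the migrated libraries lay between the 2 low nonmigrated values and the high value of replicate 3. The log2 fold change in the skin was -0.08 (95% interval -1.24 to 1.08, edgeR adjusted p = 0.908), and without skin nonmigrated replicate 3 it was 1.15 (SE 0.31, edgeR adjusted p = 0.00792). Stromal genes summed to 260.5 CPM in that library and to 61.9 and 64.4 CPM in the other two, to between 132 and 369.9 CPM in joint nonmigrated cells and to at most 2.74 CPM in any lymph node library. Their part in the Igfbp4 level was not tested. In the steady-state nodes, where stromal genes were near 0, Igfbp4 reached 419, 426 and 562 CPM (joint) and 303, 281 and 272 CPM (skin).

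Amigo2, on chromosome 15 (97244125 to 97247287), encodes a cell adhesion protein with leucine-rich repeats. It measured 0.465, 0.664 and 1.02 CPM in joint nonmigrated and 4.02, 3.83 and 3.43 CPM in joint migrated cells. In the skin the order was the opposite, with 18.9, 21.3 and 4.31 CPM in nonmigrated and 3.72, 3.59 and 3.63 CPM in migrated cells. The log2 fold change was 2.39 (SE 0.50, edgeR adjusted p = 0.00178) in the joint and -2.03 (SE 0.47, edgeR adjusted p = 0.00323) in the skin. The migrated levels nearly coincided, and the nonmigrated levels differed by a log2 fold change of -4.37 (SE 0.53, edgeR adjusted p = 2.86e-04), joint over skin. Without skin nonmigrated replicate 3, the lowest of its group, the changes in the skin and between the nonmigrated groups were -2.46 and -4.81. Amigo2 shares 58 exon bases (1.83%) with Pced1b on the opposite strand, which held 42193 counts over the 18 libraries against 7509 for Amigo2, so the Amigo2 counts are uncertain to the extent that reads of both genes fell in the shared stretch.

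Actn1, on chromosome 12 (80167547 to 80260371), encodes the actin cross-linking protein α-actinin 1 and is expressed in many cell types. Its level was 95.8, 146 and 235 CPM in joint nonmigrated and 206, 404 and 424 CPM in joint migrated cells, and these groups overlapped. Skin nonmigrated libraries held 132, 164 and 82.1 CPM and skin migrated libraries 332, 422 and 468 CPM, without overlap. The log2 fold change was 1.12 (SE 0.36, edgeR adjusted p = 0.02) in the joint and 1.69 (SE 0.37, edgeR adjusted p = 0.00208) in the skin. The joint call was lost without joint nonmigrated replicate 1 (0.85), joint nonmigrated replicate 2 (1.05), joint migrated replicate 2 (0.99) or joint migrated replicate 3 (0.97), the last 3 with an edgeR adjusted p of 0.0613 to 0.0661. Unlike the other 8 genes, Actn1 was highest in the migrated groups and stood lower at steady state (189 ± 11.7 CPM and 263 ± 17.2 CPM, SD, n = 3).

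Of the 9 genes, 8 were thus called higher in joint migrated than in joint nonmigrated cells and 1 lower, where 16% of the 16777 tested genes were called higher and 18.4% lower (34.3% in all). In the skin 7 were called higher and 1 (Amigo2) lower, where the shares were 15.7% and 19.7% (35.4% in all). Calls required both an edgeR adjusted p under 0.05 and a change of more than 1 on the log2 scale. By CPM, all 3 migrated libraries lay above all 3 nonmigrated ones for 7 genes in the joint and 7 in the skin (32.9% and 31.4% of all genes), and below them for Igfbp4 in the joint and Amigo2 in the skin (32.6% and 30.2%). The median log2 fold change of the 9 was 2.39 in the joint and 1.38 in the skin, against 0.02 and 0.01 over all tested genes. The composition of the cells changed at the same time. All 15 T cell core genes rose in the joint (median 2.74) and 13 in the skin (median 1.28), where the lowest value was 0.51. All 12 macrophage and monocyte genes fell at both sites (medians -6.75 and -5.04), as did 9 of 9 neutrophil genes in the joint and 8 of 9 in the skin. Conventional dendritic cell genes summed to 433 to 668 CPM in joint nonmigrated and 583 to 1048 CPM in skin nonmigrated libraries, below every migrated library. Gene by gene this list of 8 was mixed. In the joint 3 were called higher and 1 lower (median 0.33), and in the skin 4 higher and 4 lower (median 0.13). The part of these shifts in the changes of the 9 genes was not tested by the models.

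**Figure D2:**
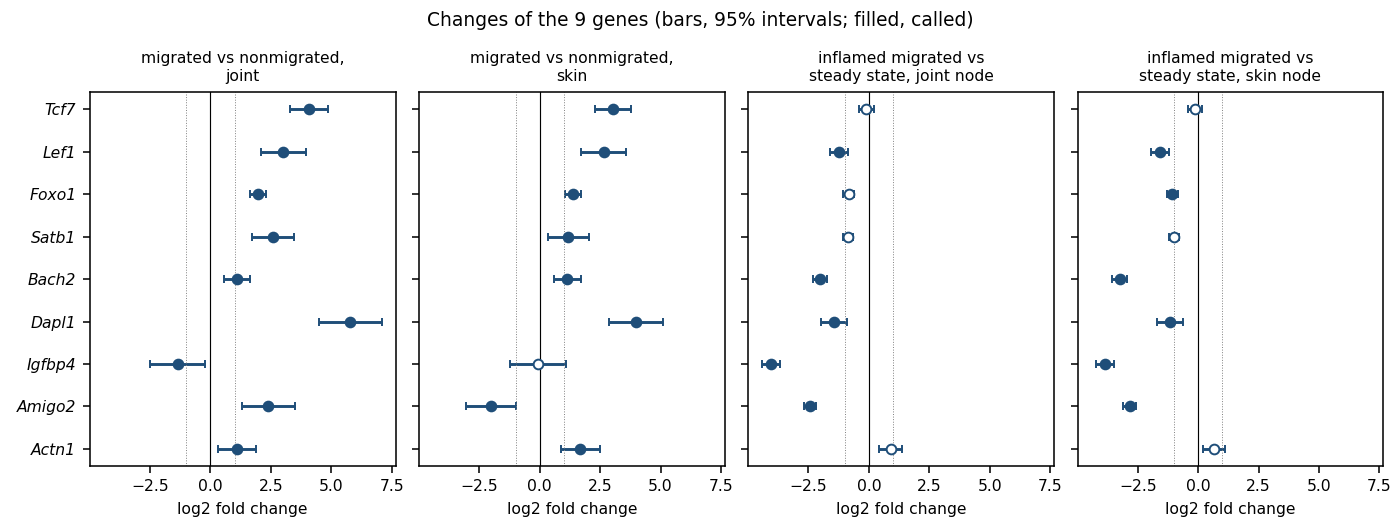
Log2 fold changes of the 9 genes in 4 comparisons, with 95% intervals, and filled points where a gene was called. Dotted lines mark a log2 fold change of 1 in either direction. Most points lie to the right in migrated against nonmigrated cells and to the left in inflamed migrated cells against the steady-state nodes, where Igfbp4 has the largest drop.

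Whether the response to migration differed between joint and skin was tested by an interaction term. It was called for Amigo2 alone among the 9 genes (4.42 on the log2 scale, joint change minus skin change, SE 0.69, edgeR adjusted p = 0.00434), where 6.13% of all tested genes were called (3.96% higher and 2.17% lower). The other values ran from -1.28 for Igfbp4 to 1.79 for Dapl1, with edgeR adjusted p-values of 0.0956 and above. Without skin nonmigrated replicate 3, 5 of the 9 genes were called, adding Tcf7 (1.37, edgeR adjusted p = 0.00838), Satb1 (1.78, edgeR adjusted p = 0.0025), Dapl1 (2.23, edgeR adjusted p = 0.0212) and Igfbp4 (-2.51, edgeR adjusted p = 0.00178). The count of Amigo2 alone thus rests on that library, without which the calls over all tested genes also rose, from 1029 to 2610.

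Between the nonmigrated groups, joint over skin, 6 genes were called, where the share over all genes was 14.3% (5.45% higher and 8.86% lower). Bach2 (log2 fold change 1.29, SE 0.25, edgeR adjusted p = 0.00395) and Igfbp4 (1.80, SE 0.54, edgeR adjusted p = 0.0287) were higher in the joint. Tcf7 (-1.23, SE 0.33, edgeR adjusted p = 0.0169), Satb1 (-1.26, SE 0.39, edgeR adjusted p = 0.0317), Dapl1 (-2.84, SE 0.61, edgeR adjusted p = 0.00631) and Amigo2 were lower. The calls of Tcf7, Satb1 and Igfbp4 were lost without skin nonmigrated replicate 1 or without replicate 2. Those of Tcf7 and Satb1 were also lost without joint nonmigrated replicate 1. That of Satb1 was lost without joint nonmigrated replicate 2, and that of Igfbp4 without joint nonmigrated replicate 2 or 3. Without skin nonmigrated replicate 3, which stood apart, Tcf7 (-1.56, edgeR adjusted p = 3.53e-04), Satb1 (-1.64, edgeR adjusted p = 2.89e-04) and Igfbp4 (3.02, edgeR adjusted p = 7.25e-05) stayed called. Dapl1 (-3.28, edgeR adjusted p = 5.49e-04) and Bach2 (1.26, edgeR adjusted p = 0.00684) stayed called as well. T cell core genes were lower in the joint as well (10 of 15 called), lymphoid precursor genes were higher (7 of 8 tested) and B cell genes were higher (9 of 10). Summed precursor levels reached 193 CPM in joint nonmigrated replicate 3 and 68.4 and 85.9 CPM in replicates 1 and 2 of that group. Bach2 was also highest in this replicate, and without it the joint over skin difference of Bach2 was 0.87 and no longer called.

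Once the cells had migrated, only Bach2 was called between joint and skin (log2 fold change 1.24, SE 0.25, edgeR adjusted p = 0.0311), where 1.14% of all genes were called (0.56% higher and 0.578% lower). That call was lost without any 1 of the 6 migrated libraries, with edgeR adjusted p-values of 0.0722 to 0.103. The B cell genes, 8 of 10 called higher in the joint, moved with it. For Tcf7 the difference was -0.19 with a 95% interval of -0.89 to 0.51, for Foxo1 0.09 (-0.22 to 0.41) and for Amigo2 0.05 (-0.96 to 1.05). Dapl1 had a difference of -1.04 (-2.0 to -0.09, edgeR adjusted p = 0.258).

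To set the 9 genes against the amount of T cell RNA in each library, the level of each was divided by the geometric mean of the 15 T cell core genes. Tcf7 held 1.34, 1.43 and 1.13 times the core level in joint nonmigrated and 3.25, 3.63 and 3.16 times in joint migrated cells. The corresponding skin values were 1.34, 1.26 and 1.46 against 3.45, 4.53 and 4.59. The 2 nonmigrated groups were alike by this measure, skin replicate 3 included, and the migrated libraries were all higher. The likeness rested on the choice of reference. With Cd3d, Cd3e and Cd3g in place of the core, the log2 ratios of Tcf7 did not overlap. They were 0.90, 0.90 and 0.55 in joint and 0.30, 0.35 and 0.43 in skin nonmigrated libraries, with all migrated libraries again higher. Dapl1 was likewise higher per T cell core in migrated cells at both sites (differences of 2.58 and 2.63 on the log2 scale), where 1.25% of all genes in the joint and 3.25% in the skin had nonoverlapping higher ratios. Lef1 joined them in the skin (1.27) and overlapped in the joint (0.32). Satb1 was about level with the core in all 4 inflamed groups, with ratios of 1.04 to 1.44. In the joint Bach2, Igfbp4, Foxo1, Amigo2 and Actn1 had lower ratios after migration, as had 92.1% of all genes, and in the skin Amigo2 did, as had 72.0%. Joint nonmigrated levels of Amigo2 (0.465 to 1.02 CPM) and Dapl1 (0.164 to 0.432 CPM) were close to the 0.1 CPM pseudocount, which raises their ratios there. The lack of overlap for Amigo2 in the joint may therefore rest on the pseudocount. Between the sites, joint over skin, nonoverlapping ratios were higher for 3 genes and lower for 2 in nonmigrated cells (22.1% and 3.21% of all genes), higher for 2 and lower for 1 in migrated cells (7.02% and 14.2%) and higher for 2 and lower for 2 at steady state (48.1% and 2.85%).

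**Figure D3:**
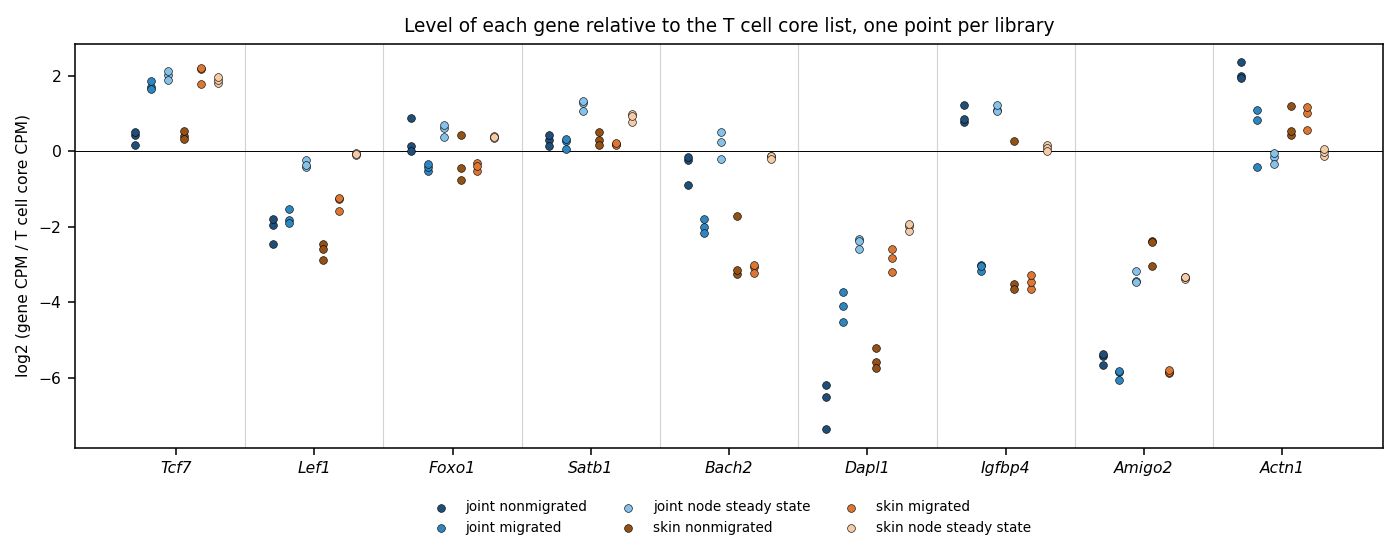
Level of each gene relative to the T cell core list (log2 of the ratio of CPM values), with 3 points for each of the 6 groups. Tcf7 and Dapl1 are higher in migrated than in nonmigrated libraries at both sites, Satb1 is about level among the inflamed groups, and 7 genes lie lower in inflamed migrated than in steady-state libraries at both sites.

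The second axis of the data compared inflamed migrated cells with the steady-state nodes. T cell core genes differed little here: none of 15 was called in the joint (median log2 fold change 0.08) and 2 were called lower in the skin (median -0.31). Of the 9 genes, 5 were called lower in the joint (Igfbp4, Amigo2, Bach2, Dapl1 and Lef1) and the same 5 and Foxo1 in the skin, where 7.31% and 15.0% of the 17107 tested genes were called lower (24.2% and 36.5% in either direction). None of the 9 was called higher, although Actn1 was in the joint (1.13, edgeR adjusted p = 1.23e-05) without joint migrated replicate 1, its lowest migrated library. The median log2 fold change was -1.22 in the joint and -1.17 in the skin, against -0.02 and 0.00 over all tested genes.

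Igfbp4 had the largest drop, with log2 fold changes of -4.05 (SE 0.17, edgeR adjusted p = 3.95e-09) in the joint and -3.85 (SE 0.17, edgeR adjusted p = 1.47e-09) in the skin, a 16.6-fold and a 14.4-fold lower level. Bach2 changed by -2.03 (SE 0.14, edgeR adjusted p = 8.24e-08) and -3.25 (SE 0.14, edgeR adjusted p = 1.47e-09). Amigo2 changed by -2.44 (SE 0.12, edgeR adjusted p = 4.94e-09) and -2.83 (SE 0.12, edgeR adjusted p = 1.29e-09). In each of these genes every inflamed migrated library lay below every steady-state library, as it did for 7 of the 9 genes at each site (29.4% of all genes in the joint and 35.9% in the skin). Lef1 changed by -1.22 (SE 0.17, edgeR adjusted p = 6.03e-05) and -1.58 (SE 0.18, edgeR adjusted p = 3.87e-06), and Dapl1 by -1.46 (SE 0.25, edgeR adjusted p = 2.78e-04) and -1.17 (SE 0.25, edgeR adjusted p = 9.79e-04).

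The remaining genes were near or inside the fold threshold. Foxo1 changed by -0.83 in the joint (SE 0.10, edgeR adjusted p = 1.88e-05, not called) and by -1.07 in the skin (SE 0.10, edgeR adjusted p = 1.11e-06). Satb1 changed by -0.87 (SE 0.10, edgeR adjusted p = 7.02e-06) and by -0.999 (SE 0.10, edgeR adjusted p = 1.08e-06), the latter so close to the threshold that 19 of 21 alternative settings called it. Tcf7 did not pass the test, at -0.10 (95% interval -0.41 to 0.20, edgeR adjusted p = 0.562) in the joint and -0.13 (-0.44 to 0.17, edgeR adjusted p = 0.421) in the skin. Actn1 had values above 0, 0.90 (SE 0.21, edgeR adjusted p = 0.00332) and 0.66 (SE 0.21, edgeR adjusted p = 0.0146), under the fold threshold. In the skin all 3 migrated libraries exceeded the steady-state ones in Actn1, both by CPM (35.3% of all genes) and per T cell core (47.8%). B cell genes moved in the same comparisons, with 10 of 10 called lower at both sites (medians -2.31 and -4.23), and their part in the values of Bach2 and the other genes was not tested. Per T cell core, 8 of the 9 genes in the joint and 7 in the skin had ratios lower than in every steady-state library, as had 28.1% and 22.2% of all genes. Tcf7 overlapped in the skin, with 3.45 to 4.59 times the core level after migration against 3.52 to 3.93 at steady state.

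Between the steady-state nodes none of the 9 genes was called by edgeR (3.89% of all genes were, 3.23% higher and 0.655% lower), and DESeq2 called none either. At an unadjusted edgeR p under 0.05, Lef1, Igfbp4, Dapl1, Amigo2 and Actn1 differed. Among them Igfbp4 and Lef1 (-0.60, SE 0.17, edgeR adjusted p = 0.0496) also had an adjusted p under 0.05 and missed only the fold threshold. The largest differences, joint over skin, were -0.76 for Dapl1 (SE 0.24, edgeR adjusted p = 0.0758) and 0.71 for Igfbp4 (SE 0.15, edgeR adjusted p = 0.00961). Bach2 (0.00, 95% interval -0.28 to 0.29) and Satb1 (-0.01, -0.22 to 0.20) were close to equal.

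Other genes known from naive T cells were read from a list of 18. With migration, 16% of all tested genes were called higher in the joint and 15.7% in the skin. Of the 18, 11 were called higher in the joint and 9 in the skin, and none lower. These included Ccr7, the lymph node homing receptor (log2 fold change 4.87 in the joint and 2.16 in the skin), and S1pr1, the receptor that guides exit from lymph nodes (3.24 and 2.83). The interleukin 7 receptor gene Il7r rose in the joint (2.10) and had a value of -0.61 in the skin, uncalled. Klf2, a FOXO1 target, was not called at either site (-0.98 and 0.53). Against the steady-state nodes, 3 of 18 were called lower in the joint (Treml2, Ccr9 and Foxp1) and 7 in the skin. Of all tested genes, 7.31% and 15.0% were called lower. Ccr7 was called higher in the skin (1.19). S1pr1 had values of -0.90 in the joint, uncalled, and -1.08 in the skin. The companion list had a median of -0.55 in the joint and -0.90 in the skin. Ccr9 also stood on a list of 6 plasmacytoid dendritic cell genes. Of these, 3 were called lower and 1 higher in the joint, and 4 lower in the skin. At both sites 10 of 10 B cell genes were called lower and 6 of 8 conventional dendritic cell genes higher. The part of these cells in the companion values was not tested.

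Effector and memory T cell genes moved the other way against the steady-state nodes. Of 26 such genes, 24 were called higher at each site (medians 2.30 and 2.33), with Prf1 and Nkg7 uncalled, where 16.9% and 21.5% of all genes were called higher. Prdm1, which BACH2 represses, changed by 2.65 (SE 0.11, edgeR adjusted p = 3.95e-09) in the joint and by 3.33 (SE 0.11, edgeR adjusted p = 2.96e-10) in the skin. Its mean was 61.1 ± 6.35 CPM and 62.5 ± 6.62 CPM in the joint and skin migrated groups against 9.94 ± 0.28 CPM and 6.35 ± 0.154 CPM at steady state (SD, n = 3). Gzmb, encoding the cytotoxic protease granzyme B, changed by 3.05 and 5.07. Several genes of this list, such as Id2 and Havcr2, are also expressed by myeloid cells or innate lymphocytes. Conventional dendritic cell genes moved with the list, with 6 of 8 called higher at each site and summed levels of 1614 to 4078 CPM in joint migrated against 229 to 297 CPM in joint steady-state libraries, and of 3182 to 4613 CPM against 147 to 192 CPM in the skin. Of 12 macrophage and monocyte genes, 4 were called higher and 3 lower in the joint, and 11 higher and 1 lower in the skin. The part of these cells in the effector and memory gene values was not tested. With migration out of the tissue the list was mixed: 17 of 26 rose and 2 fell (Cd44 and Havcr2) in the joint, and 9 rose and 5 fell in the skin. Prdm1 had values of 0.03 and -0.29 there, uncalled.

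**Figure D4:**
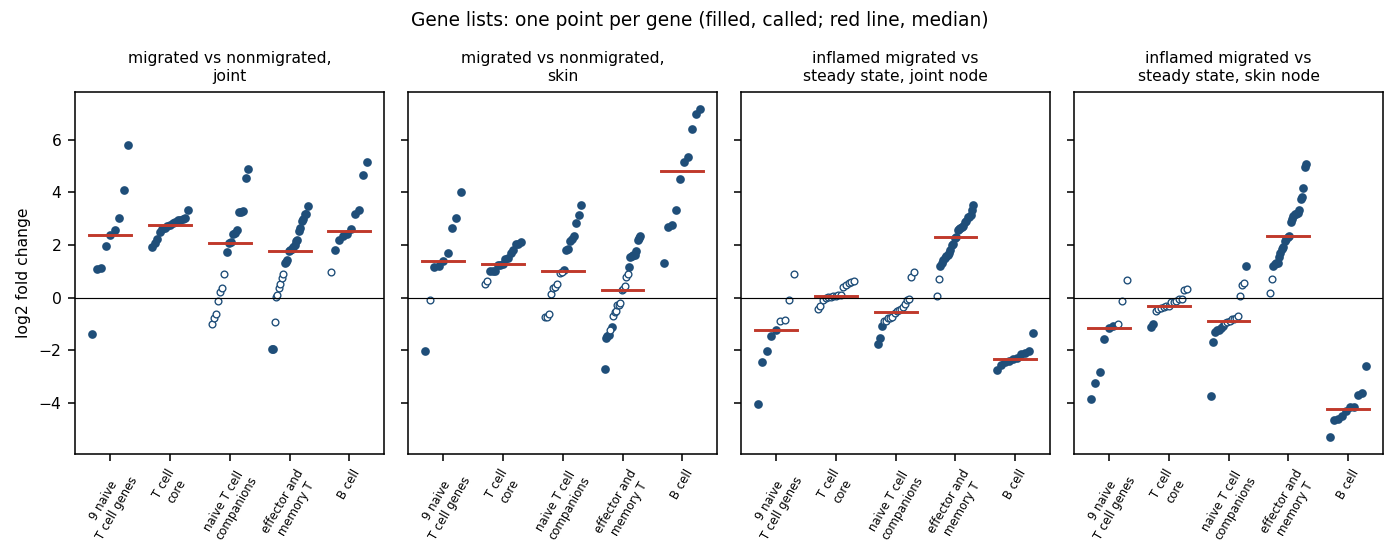
Log2 fold change of each gene in 5 lists in the same 4 comparisons, with filled points for called genes and a red line at the median. All T cell core genes and the medians of both naive T cell lists lie above 0 with migration, and against the steady-state nodes effector and memory genes lie above 0 and B cell genes below it.

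Relatives and partners of the factors were read from a list of 14 genes, of which 12 were tested. Axin2, a feedback inhibitor of β-catenin signalling that TCF factors activate, rose with migration by 3.70 (SE 0.23, edgeR adjusted p = 4.71e-07) in the joint and 2.28 (SE 0.22, edgeR adjusted p = 7.61e-06) in the skin. Tcf7l1 rose by 3.24 and 3.06. Tcf7l2 fell by 1.5 and 2.10 on the log2 scale and Bach1 fell by 2.19 and by 1.64. Relative to the steady-state nodes Tcf7l1 (2.57 and 2.96) and Tcf7l2 (3.35 and 3.02) were called higher at both sites, opposite to Lef1 and Bach2. Axin2 was not called there (0.70 and 0.28). The FOXO genes Foxo3 (-0.48 and -0.67) and Foxo4 (-0.50 and -0.82) lay below 0 as Foxo1 did, all under the fold threshold. Among the Groucho corepressors, Tle1 was called lower in the joint (-1.15) and had -0.90 in the skin, Tle4 had -0.55 and -0.86, and Tle3 was near 0.

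Levels can be compared between genes only per length, as CPM per kilobase of exon. In the skin steady-state node Tcf7 led with 381 CPM per kilobase, followed by Dapl1 (99.0), Igfbp4 (64.5), Actn1 (47.6), Foxo1 (40.3), Lef1 (29.0), Satb1 (26.2), Bach2 (24.4) and Amigo2 (8.36). In joint nonmigrated cells the order was led by Actn1 (28.7), Tcf7 (17.6) and Igfbp4 (16.1), with Dapl1 (0.381) and Amigo2 (0.227) last. In skin nonmigrated cells Tcf7 led (41.3), ahead of Actn1 (22.8). Tcf7 was thus the leading gene in every group except joint nonmigrated cells.

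Over the 18 libraries the 9 genes fell into a group of like pattern and 4 others. Lef1, Foxo1, Dapl1, Satb1 and Tcf7 had pairwise Pearson's r values of log2(CPM + 1) between 0.93 and 0.98. Many genes outside the 9 lay closer to them. By r with Tcf7, Dapl1 had rank 153 of 15912 genes, Satb1 242, Lef1 264 and Foxo1 339. The closest rank of any pair was 12, that of Lef1 for Dapl1. Bach2 was closest to Igfbp4 (0.87) and Foxo1 (0.85), while Igfbp4 and Tcf7 had 0.30. Actn1 had 0.72 with Tcf7, 0.01 with Amigo2 and -0.10 with Igfbp4. These values describe patterns over 6 groups that also differ in cell composition and depth. By the same measure, of 15913 genes, the closest to Tcf7 were Bdh1, Sidt1 and Klk8 (0.994 to 0.993), to Lef1 Pik3ip1, Gimap6 and 4833403J16Rik (0.992 to 0.991), and to Foxo1 Pik3ip1, Zfp365 and Cep97 (0.992 to 0.988). Satb1 was closest to Pitpnm2, Ets1 and Acap1 (0.993 to 0.986), and Dapl1 to Arpc5l, Gm11346 and Cd8b1 (0.992 to 0.989). Bach2 was closest to 4930426D05Rik, Klhl14 and Gm15675 (0.995 to 0.992) and Igfbp4 to Slc30a5, Txndc16 and Ddx41 (0.970 to 0.962). Amigo2 was closest to Gm26809, Rhoh and B3gnt5 (0.981 to 0.967), and Actn1, at 0.919 to 0.911, to Snhg15, Myh9 and Tmtc4.

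**Figure D5:**
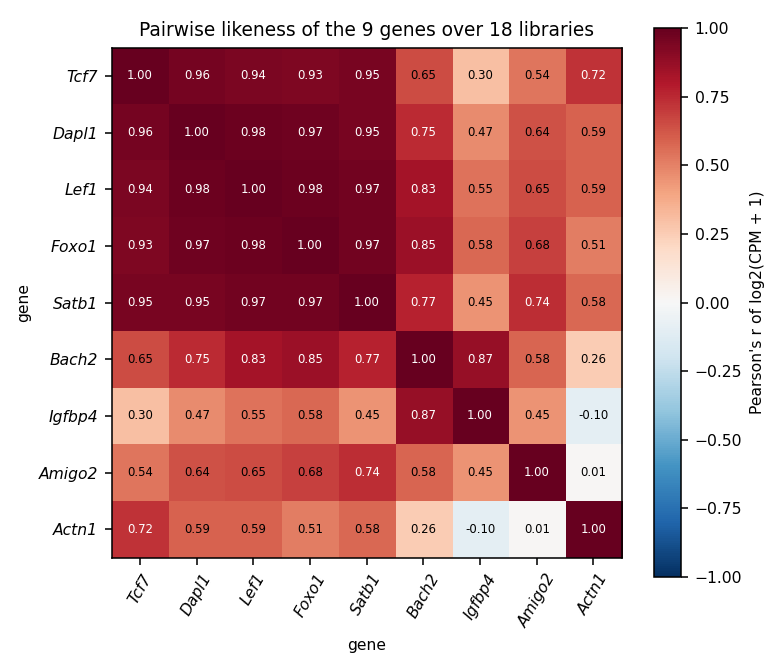
Pearson's r of log2(CPM + 1) over 18 libraries for each pair of the 9 genes, with red for positive and blue for negative values. Tcf7, Dapl1, Lef1, Foxo1 and Satb1 form a block of values between 0.93 and 0.98, and Actn1 and Amigo2 stand apart with 0.01 between them.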

How the data were processed

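RNA-seq of 18 libraries (6 groups of 3) was analysed. The authors sorted viable CD45+ cells, sequenced paired reads of 100 bases on an Illumina HiSeq, trimmed them with Trim-Galore!, aligned them to mm10 with TopHat2 and counted them per Ensembl gene with HTSeq in default mode. The deposited unit is raw counts per gene. The 5 HTSeq summary lines were left out (reads assigned to no unique place, 9.24% to 12.7% per library). Symbols were matched for 49326 of 49585 genes (GENCODE M21, GRCm38), and the annotation marks Amigo2 as overlapping Pced1b.

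Here, counts were tested with edgeR 4.0.16 (R 4.3.3, quasi-likelihood F test, TMM, filterByExpr with a minimum count of 10). The 12 inflamed libraries entered 1 fit (16777 genes) and the 12 lymph node libraries another (17107 genes), with group as the factor and Benjamini-Hochberg adjustment over all genes. Calls needed an adjusted p under 0.05 and an absolute log2 fold change above 1, as in the study's methods. SE is the absolute log2 fold change over the square root of F. CPM were TMM-scaled over all 18 libraries, and ratios to T cell core genes used a pseudocount of 0.1 CPM. For genes with many counts, counting error is small beside the spread between replicates at these depths (3 counts were taken as the floor). It is not small at low counts, as for Dapl1 in joint nonmigrated cells (6, 13 and 6 counts). On simulated counts with 200 changed genes, 94.4% of changes of 2 on the log2 scale were recovered for joint migrated against nonmigrated and 96.7% for joint migrated against steady state. The simulation gave every gene the same fixed spread and let no library stand apart. Its rates check the fit and do not measure recovery in the real libraries.

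The members and gene lists were chosen with earlier results of these data known. All 9 members are named, with the listed genes of largest change, all T cell core genes and factor relatives as counts or values, and the 3 genes of highest correlation. Some listed genes are counted but not reported by name here. Alternatives were DESeq2 1.42.0 (size factors, Wald test), other filters, a replicate block, other sets of libraries in the fit, thinned counts, an adjusted p under 0.001, Cd3d, Cd3e and Cd3g as the reference, and leaving out each library. Tables and figures used Python 3.11.15 and matplotlib 3.10.9.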

Additional observations from a re-analysis of the deposited data

Results flagged for a closer look

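The change of Amigo2 with migration differed between joint and skin by 4.42 on the log2 scale (joint change minus skin change, edgeR interaction term). All 3 joint migrated libraries lay above all joint nonmigrated ones, and all 3 skin migrated libraries lay below all skin nonmigrated ones. Without skin nonmigrated replicate 3 the difference was 4.85, and without the replicates 3 of both nonmigrated groups, a setting chosen after seeing the data, it was 5.20.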

How the results depend on the processing

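Counts of called genes among the 9 kept within 1.5 times the reported value in most alternatives, with these exceptions. At an adjusted p under 0.001 the counts were 5 for joint migrated over nonmigrated, 4 for skin, 1 between nonmigrated groups, 0 between migrated groups and 0 for the interaction. With only the groups compared in the fit, 3 were called between the nonmigrated groups. Without single libraries the counts were 3 to 6 between nonmigrated groups, 0 to 1 between migrated groups and 1 to 5 for the interaction. The 5 came without skin nonmigrated replicate 3, and 6 were called without both nonmigrated replicates 3 (chosen after seeing the data). With Cd3d, Cd3e and Cd3g as the reference, ratios in joint over skin nonmigrated cells were higher for 7 genes and lower for 1 (3 and 2 with the T cell core), and lower for 2 (1) between migrated groups. Changes of sign concerned values that were not called with all libraries. Igfbp4 in the skin was 1.15 and called without both nonmigrated replicates 3, and ran from -0.445 to 1.15 without single libraries, the latter without skin nonmigrated replicate 3 and also called. Actn1 between nonmigrated groups was -0.287 without both replicates 3 and ran from -0.0600 to 0.599 without single libraries, and between migrated groups it ran from -0.385 to 0.0421. The Actn1 interaction was 0.0476 and the Bach2 interaction 0.393 without both replicates 3. Without single libraries the Bach2 interaction ran from -0.232 to 0.370, the Lef1 interaction from -0.0962 to 0.803 and Tcf7 in joint migrated over steady-state cells from -0.247 to 0.0382. Amigo2 between migrated groups was -0.107 with thinned counts. Between steady-state nodes Satb1 was 0.000844 with DESeq2 size factors, 0.000887 by the DESeq2 Wald test, 0.00963 without a filter and -0.0767 to 0.0156 without single libraries. Bach2 there was -0.000363 with at least 10 counts in every library of a group, -0.0104 with thinned counts and -0.152 to 0.107 without single libraries. The causes were not tested.

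Whether replicate numbers pair the samples cannot be stated here, and the main fits used no pairing. Deviations of same-numbered libraries correlated at 0.021 to 0.254 between migrated and nonmigrated cells and at -0.185 to -0.021 between migrated and steady-state cells. At each site 3 of 3 migrated libraries correlated best with their own number among the nonmigrated. The reverse held for 3 of 3 skin nonmigrated and 2 of 3 joint nonmigrated libraries. With the replicate block 0 of the 9 genes were called between migrated groups, where Bach2 was lost (1.25, edgeR adjusted p = 0.0604), and 5 between nonmigrated groups, where Satb1 was lost (-1.16, edgeR adjusted p = 0.0556), and the other counts did not change. Igfbp4 in the skin was 0.344 with the block, Amigo2 between migrated groups -0.00212, the interaction of Bach2 0.0191 and Bach2 between steady-state nodes -0.00148.

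Over all genes, 191 were called between migrated groups, against 465 by the DESeq2 Wald test, 327 without a filter, 407 with all 18 libraries in the fit, 127 after thinning, 0 at 0.001 and 58 to 328 without single libraries. For the interaction 1029 were called, against 1729, 1664 and 20 by DESeq2, with all libraries and at 0.001, and 582 to 2610 without single libraries. At 0.001 the other counts were 3586 (5757 at 0.05) and 3508 (5940) for migration in joint and skin, 511 (2400) between nonmigrated groups, 2714 (4143) for joint migrated over steady state and 246 (665) between steady-state nodes. Between nonmigrated groups 3720 were called without skin nonmigrated replicate 3.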
